A study of Mus musculus with 12 samples.

Results

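The genes described here are the nuclear-encoded genes of oxidative phosphorylation, taken from the gene table by their symbols. A symbol was kept when it began with Ndufa, Ndufb, Ndufc, Ndufs, Ndufv, Uqcr, Cox followed by a digit from 4 to 8, or Atp5, or when it was Sdha, Sdhb, Sdhc or Sdhd, and 9 names containing "-ps" were left out. The rule found 98 entries with 97 distinct symbols among 54839 features, since Atp5o was listed under 2 identifiers. They comprised 39 genes of complex I, 8 complex I assembly factors (Ndufaf1 to Ndufaf8), 4 genes of complex II, 8 of complex III, 21 of complex IV and 18 of complex V. Ndufa4 and its relative Ndufa4l2 were counted with complex IV, where the Ndufa4 protein is found. Of the 98 entries, 92 passed the filter on low counts and were tested together with all other genes, 17121 in total, and the 6 that did not pass were Cox4i2, Cox6a2, Cox7b2, Cox8b, Cox8c and Ndufa11b.

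Oxidative phosphorylation takes place at the inner mitochondrial membrane. Complex I passes electrons from NADH, and complex II electrons from succinate, to ubiquinone; complex III hands them to cytochrome c, complex IV to oxygen, and complex V, the ATP synthase, uses the proton gradient built up on the way to make ATP. Most subunits are encoded in the nucleus and imported, a few are encoded by mitochondrial DNA, and both kinds have to be assembled together. Hepatocytes are rich in mitochondria, and those near the portal vein, where oxygen is higher, are known to rely more on oxidative metabolism than those near the central vein.

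The libraries came from hepatocytes of male p16-Tom mice on a C57BL/6 background, heterozygous for p16-CreERT2 and for R26-CAG-LSL-tdTomato, whose age was not given in the sources used here. In these mice a Cre recombinase that needs tamoxifen is driven by the p16Ink4a promoter, and tamoxifen makes cells expressing p16Ink4a at that time, and their descendants, fluoresce with tdTomato. Mice in all 4 groups had this genotype and received tamoxifen, and they were injected repeatedly either with corn oil, the vehicle, or with CCl4, which hepatocytes near the central vein turn into a toxic product. Livers were dissociated with collagenase, and live cells were sorted into tdTomato-positive (Tom+) and tdTomato-negative (Tom-) fractions, which gave 4 groups of 3 libraries, Tom- oil, Tom+ oil, Tom- CCl4 and Tom+ CCl4. Nothing in the sources used here says that same-numbered Tom+ and Tom- libraries came from 1 mouse, or that the 3 libraries of a group came from separate mice, so the p-values measure the spread between these libraries, which may be technical in part.

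Total counts ranged from 37568584 to 75331424 per library, at which 3 counts, taken as the smallest level the depth can show, corresponded to 0.0369 to 0.0829 CPM (counts scaled to a common library size). This floor covers counting error only, whereas the 95% intervals of log2 fold changes given below rest on the spread between libraries. The tdTomato feature went against the labels of 2 oil libraries, the library labelled Tom- oil replicate 1 at 1790 CPM and the library labelled Tom+ oil replicate 2 at 135 CPM, whereas the other 5 Tom- libraries lay between 120 and 263 CPM and the other 5 Tom+ libraries between 1230 and 1550 CPM. The labels were kept as deposited. For the oxidative phosphorylation genes, the numbers called or the medians in tests that use oil libraries, and the main sums in Tom-, are given with and without these 2. All 5 hepatocyte markers fixed for the check were high in every library, with a summed level of 88800 to 134000 CPM, most of it from albumin. In bulk samples of this kind, fewer cells of a type and less RNA per cell cannot be told apart.

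Transcripts of these genes were abundant in all 4 groups and followed a nearly fixed order. Levels are compared between genes as TPM, in which counts are divided by exonic length and scaled to the same total in each library. By mean TPM over the 12 libraries, 44 of the 98 genes lay at 100 or above, 38 between 10 and 100, and 16 under 10. Over the 92 tested genes, Spearman's rho of TPM between any 2 libraries ranged from 0.989 to 0.998 over the 66 pairs of libraries, a description only, since gene length and composition are shared by the points. The median coefficient of variation of CPM over the 12 libraries was 11.3% for these genes and 19.7% for all tested genes, and among the 87 members with a mean of at least 1 CPM it reached at most 23.8%. The medians were not compared at equal levels, so they do not show that these genes vary less than others as abundant.

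**Figure D1:**
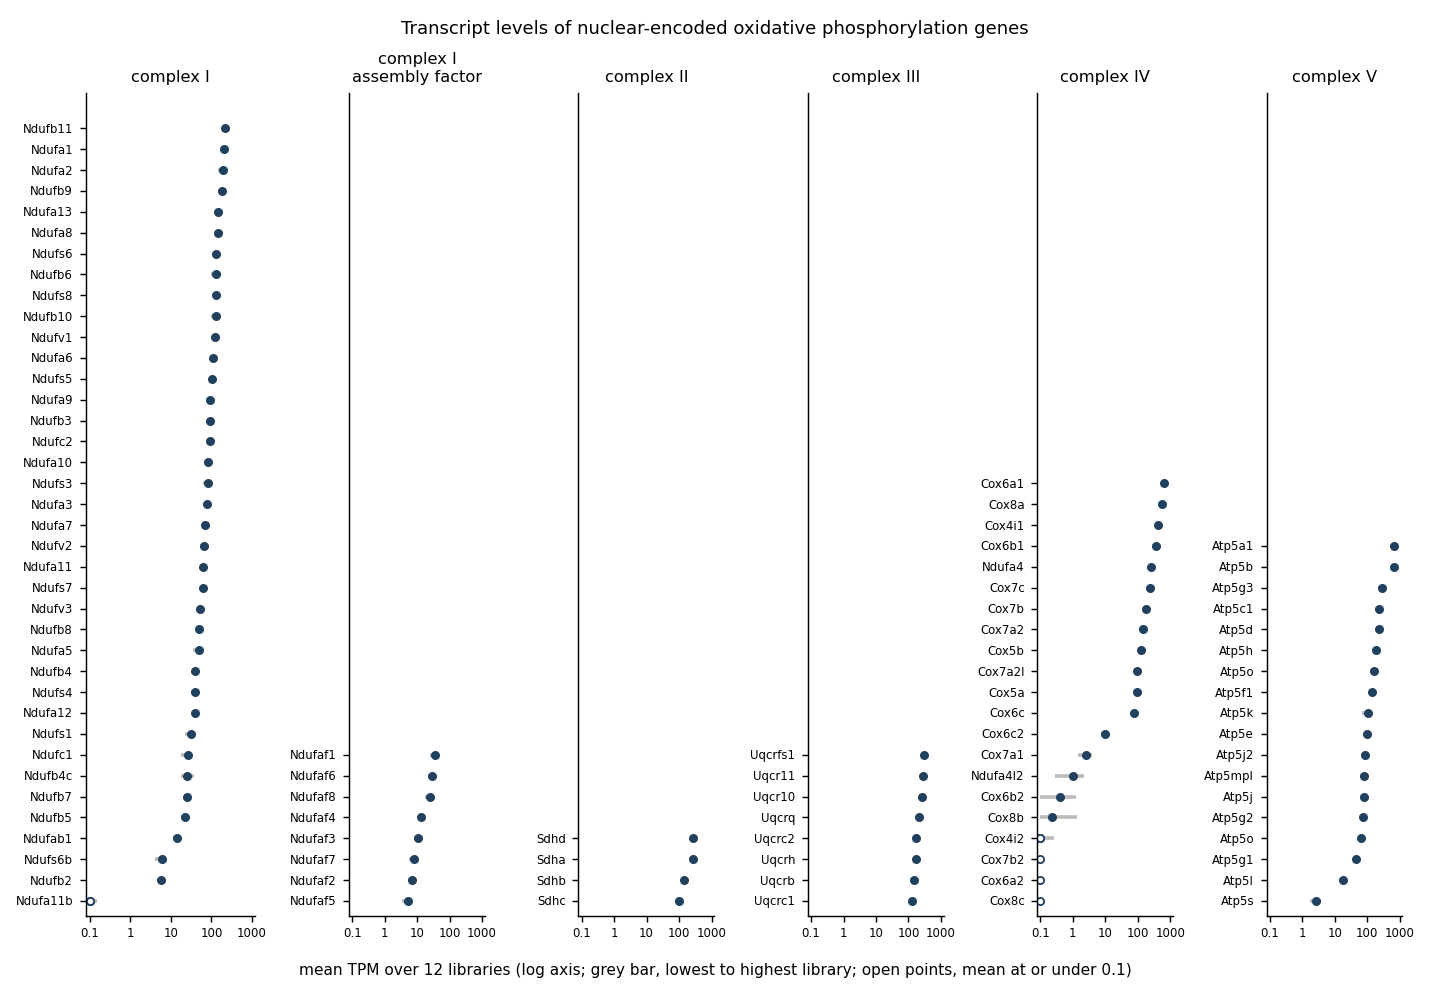
Mean TPM over the 12 libraries (log axis) of the genes, by complex and without 1 gene of complex I that is not reported here, with grey bars from the lowest to the highest library and open points for genes whose mean was at or under 0.1. Of the 98 genes, 82 have a mean of 10 TPM or more, with short bars, and the tissue-restricted forms of complex IV sit at the lower end.

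Complex V held the 2 most abundant transcripts. Atp5a1 and Atp5b, which encode the alpha subunit and the catalytic beta subunit of the F1 head, had mean levels of 649 and 648 TPM, with ranges of 492 to 745 and 543 to 744 TPM over the libraries. These ranges overlapped almost wholly, so the order of the pair is not set. Atp5g1, Atp5g2 and Atp5g3 encode identical mature c subunits of the membrane ring from 3 different genes, and they stood at 46.5, 75.2 and 278 TPM, with ranges of 39.3 to 58.5, 60.2 to 92.8 and 213 to 321 TPM that did not overlap.

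In complex IV, which reduces oxygen to water, Cox6a1, Cox8a and Cox4i1 led with 639, 542 and 416 TPM. Each is the widely expressed form of its subunit. The forms known from heart and skeletal muscle were at or near the floor, with Cox6a2 at 0 counts in all 12 libraries, which allows up to 3 counts per library, Cox8b at 0 in 9 of 12, and Cox7a1 at 2.46 TPM against 146 TPM for Cox7a2. Cox7b2 and Cox8c, known from testis, were also at 0 in every library, Cox6b2 had 0.392 TPM against 356 TPM for Cox6b1, and Cox4i2, an isoform linked to low oxygen in lung, had counts in only 1 library. Ndufa4 had 251 TPM and Ndufa4l2, which low oxygen induces in other cells, had 0.995 TPM. Cox7b stood at 182 TPM and Cox7a2l, a factor in joining complexes III and IV, at 94.1 TPM.

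Complex III was led by Uqcrfs1 (the Rieske iron-sulfur protein) at 303 TPM, followed by the small subunits Uqcr11 and Uqcr10 at 280 and 265 TPM, whose ranges over libraries overlapped. The core protein gene Uqcrc1 had 128 TPM. In complex II, the only complex here whose subunits are all encoded in the nucleus, the membrane anchor gene Sdhd and the flavoprotein gene Sdha stood at 271 and 266 TPM, the iron-sulfur subunit gene Sdhb at 141 TPM and the other anchor gene Sdhc at 101 TPM. The ranges of Sdhd and Sdha overlapped. In complex I the accessory subunit genes Ndufb11 and Ndufa1 led with 213 and 205 TPM. Ndufv1, which binds NADH and FMN, had 123 TPM, and Ndufs1, a core subunit with iron-sulfur clusters, 31.1 TPM. The 8 assembly factors lay lower than most subunits, from 5.04 TPM for Ndufaf5 to 35.5 TPM for Ndufaf1.

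Several entries can share reads with other genes. Counts were not whole in at least 1 library for 67 of the 98 entries, as happens when a read is divided among genes, and 32 entries overlap exons of another gene, 11 of them over at least 10% of their exonic length with a gene on the opposite strand and 3 with a gene on the same strand. The 2 Atp5o entries overlap each other, and Ndufb4c, Ndufs6b, Ndufa11b and Cox6c2 are further copies of subunit genes, so the division of counts among them is uncertain. Among the genes whose tests are described below, Ndufa13 overlaps Tssk6 on the opposite strand over 30.0% of its exonic length, where Tssk6 had 133 counts in all 12 libraries and Ndufa13 had 46437.

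In Tom- hepatocytes, 8 genes of oxidative phosphorylation were lower in CCl4 than in oil and none was higher, with changes of less than 1.5-fold. These were the assembly factor gene Ndufaf8, the complex IV gene Cox5b, the complex I core genes Ndufs3, Ndufv2 and Ndufs1, the complex II genes Sdhc and Sdha, and Atp5a1 of complex V. A gene was called at a Benjamini-Hochberg adjusted p under 0.05 by edgeR's quasi-likelihood test over all 17121 tested genes. By this rule 6.75% of all tested genes were lower and 9.37% higher, so the 8 of 92 called lower were a share near the background, while 0 of 92 were called higher. The question of this comparison is what repeated CCl4 did to hepatocytes without the p16 label.

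Cox5b lies at chr1:36691449-36693681 on the plus strand (mm10), Ndufaf8 at chr11:120098928-120100705 (plus), Ndufs3 at chr2:90894634-90904827 (minus), Ndufv2 at chr17:66078638-66101559 (minus), Ndufs1 at chr1:63143596-63176833 (minus), Sdhc at chr1:171127165-171150603 (minus) and Sdha at chr13:74322254-74350280 (minus), and the counts cover their annotated exons.

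Ndufaf8, which encodes a partner of the assembly factor Ndufaf5, had 11.3, 11.3 and 9.13 CPM in the Tom- oil libraries and 8.01, 6.66 and 7.03 CPM in the Tom- CCl4 libraries. The groups did not overlap. Its level in CCl4 was 0.686-fold that in oil (log2 -0.54, SE 0.126, adjusted p = 0.0116 by edgeR). Cox5b, a nuclear-encoded subunit on the matrix side of complex IV, had 105, 91.7 and 86.0 CPM in oil and 69.5, 71.1 and 75.5 CPM in CCl4, again without overlap (0.765-fold, log2 -0.39, SE 0.091, adjusted p = 0.0124). Both genes lay lower in the Tom+ CCl4 libraries as well, at 7.88 to 8.89 CPM and 70.6 to 81.6 CPM, than in any of the 6 oil libraries.

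The promoters shown belong to genes called lower in CCl4 in Tom- hepatocytes for which a stretch of at least 100 exon-free bases was available. The other called genes are not shown. The sequences are RefSeq's on GRCm38.p6, 5′ to 3′ on the strand of the gene, each the longest stretch free of annotated exons within the 250 bases before the start. Capitals mark GGGCGG, the binding motif of SP factors, or its reverse complement.
Cox5b, chr1:36691237-36691448, plus strand, 212 bases: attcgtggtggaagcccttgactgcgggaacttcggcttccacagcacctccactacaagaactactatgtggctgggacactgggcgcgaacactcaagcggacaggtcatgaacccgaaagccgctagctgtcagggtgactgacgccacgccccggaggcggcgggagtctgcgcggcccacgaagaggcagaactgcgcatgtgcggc
Ndufaf8, chr11:120098732-120098927, plus strand, 196 bases: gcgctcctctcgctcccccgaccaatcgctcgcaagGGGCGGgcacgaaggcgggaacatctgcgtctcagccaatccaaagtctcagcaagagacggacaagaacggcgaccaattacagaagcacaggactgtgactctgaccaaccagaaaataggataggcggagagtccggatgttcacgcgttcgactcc
Ndufv2, chr17:66101560-66101809, minus strand, 250 bases: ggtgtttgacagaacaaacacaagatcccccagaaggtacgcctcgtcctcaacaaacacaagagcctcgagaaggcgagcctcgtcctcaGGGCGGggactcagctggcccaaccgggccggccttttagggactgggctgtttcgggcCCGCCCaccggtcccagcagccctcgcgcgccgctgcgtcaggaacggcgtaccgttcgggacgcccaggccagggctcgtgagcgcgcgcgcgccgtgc
A window was found for 74 of the 97 symbols, and both strands of its 250 bases were searched for 5 motifs. GCGCATGCG, the motif of NRF1, a known regulator of respiratory genes, was in 9.46% of these genes and in 1.64% of 27025 genes with a window. CCGGAAG, the motif of ETS factors such as GABP, was in 18.9% and 7.83%, CAAGGTCA (estrogen-related receptors) in 4.05% and 1.51%, AAGATGGCG (YY1) in 1.35% and 0.71%, and GGGCGG in 39.2% and 35.4%. An ETS and a YY1 match can overlap through a shared AAG. The windows of these genes were richer in G and C, with a median of 56.8% against 52.0%, and a match is a description of letters and not of a bound site. The Ndufaf8 window also held the ETS motif outside the stretch shown, and the printed stretch of Cox5b held none of the 5.

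Among core subunits of complex I, Ndufs3 had 90.8, 81.5 and 77.0 CPM in Tom- oil and 65.8, 67.7 and 64.2 CPM in Tom- CCl4 (log2 -0.33, SE 0.0856, adjusted p = 0.0186). Ndufv2, whose protein carries an iron-sulfur cluster in the NADH-oxidising module, had 74.3, 62.2 and 58.4 CPM in Tom- oil and 50.8, 50.9 and 54.4 CPM in Tom- CCl4 (log2 -0.32, SE 0.0971, adjusted p = 0.0392). Ndufs1 went from 120, 109 and 113 CPM to 99.9, 98.4 and 83.5 CPM and lay closest to the threshold (log2 -0.28, SE 0.0898, adjusted p = 0.0497). No group overlapped the other for these 3 genes, and in each the library labelled Tom- oil replicate 1 was the highest of the 3 oil libraries. Ndufv2 lies outside the rule for named genes and was added after its values were seen.

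In complex II, Sdhc was at 170, 145 and 149 CPM in Tom- oil and at 109, 126 and 122 CPM in Tom- CCl4 (log2 -0.38, SE 0.103, adjusted p = 0.0253). Sdha was at 516, 501 and 493 CPM and at 424, 430 and 396 CPM (log2 -0.27, SE 0.0786, adjusted p = 0.0319). The other 2 subunit genes did not pass the test, Sdhb with a log2 fold change of -0.31 (95% interval -0.56 to -0.05, adjusted p = 0.0949 by edgeR) and Sdhd with -0.10 (interval -0.33 to 0.13). In complex V, Atp5a1 was at 1030, 911 and 867 CPM in oil and at 723, 765 and 732 CPM in CCl4 (log2 -0.34, SE 0.0945, adjusted p = 0.0276), whereas its partner Atp5b in the F1 head, at 1330, 1180 and 1180 CPM and 1020, 1100 and 1100 CPM, had a log2 fold change of -0.20 that did not pass (interval -0.40 to 0, adjusted p = 0.16).

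**Figure D2:**
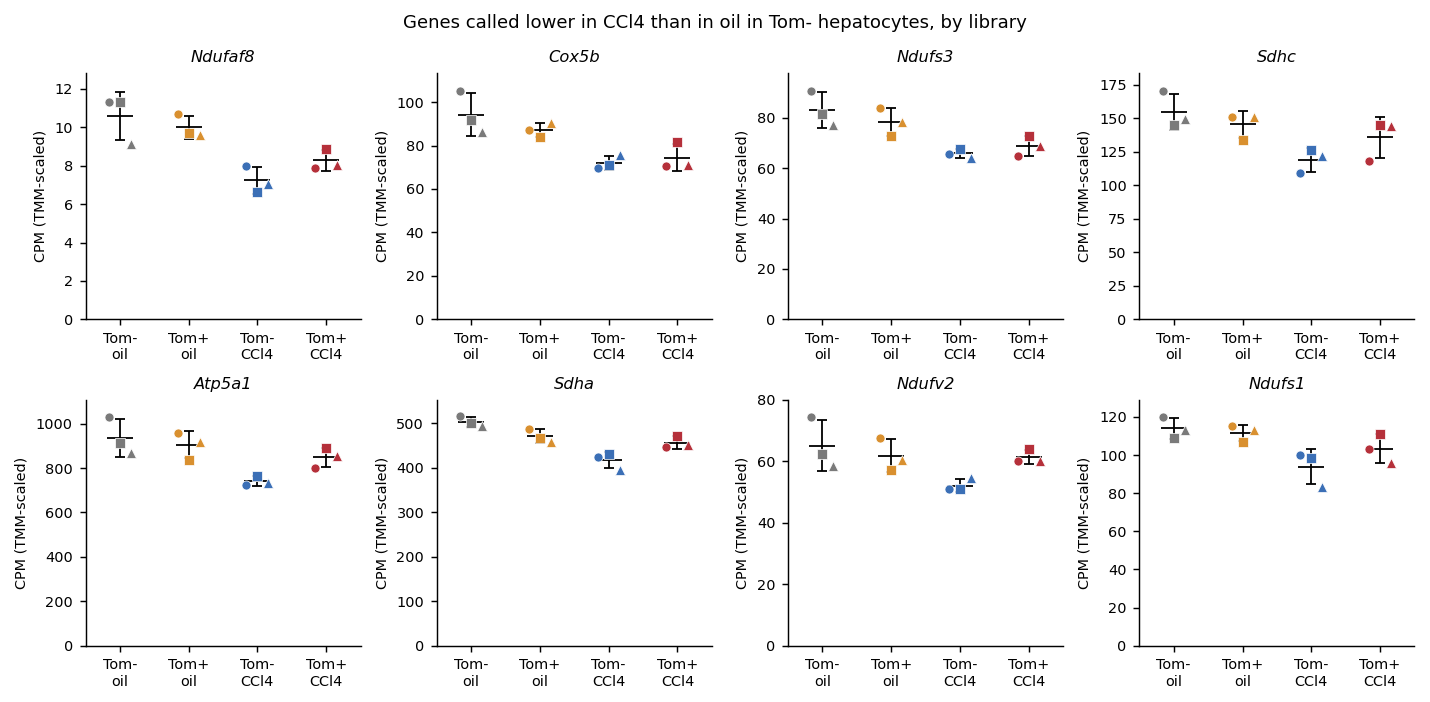
CPM of the 8 genes called lower in CCl4 than in oil in Tom- hepatocytes, in each of the 12 libraries (circle, square and triangle for replicates 1, 2 and 3), with the group mean as a horizontal bar and 1 SD as error bars. The 3 Tom- CCl4 libraries lie below the 3 Tom- oil libraries in every panel, and the mean of Tom+ CCl4 lies between the means of these 2 groups.

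Beyond the called genes the whole set leaned the same way in Tom- hepatocytes. The log2 fold change was negative for 81 of the 92 genes, with a median of -0.18 against 0.005 over all tested genes. Medians were -0.29 for complex II, -0.24 for the assembly factors, -0.20 for complex V, -0.18 for complex I, -0.13 for complex III and -0.12 for complex IV, and all 18 genes of complex V were negative. The 3 Tom- CCl4 libraries lay entirely below the 3 Tom- oil libraries for 27 of the 92 genes, against 16.8% of all tested genes. Genes of 1 set vary together from library to library, so these counts describe the set and carry no test. The lean was not particular to this set. Medians were -0.21 for 41 assembly factors outside the rule, -0.19 for 17 tricarboxylic acid cycle genes and -0.16 for 78 mitochondrial ribosome genes. They were -0.13 for 85 cytosolic ribosome genes and -0.10 for all tested genes with under 1000 exonic bases, but 0.74 for the 13 mitochondrially encoded genes. Without the 2 oil libraries whose reporter went against their labels, the median was -0.09 for the 92 genes. It was then -0.13 for these assembly factors, -0.17 for the cycle genes and -0.10 for the mitochondrial ribosome genes. For the cytosolic ribosome genes it was 0.005, so their lean rested on those libraries.

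The lean was not uniform. By a division into structural parts made after the values were known, all 7 complex I core genes were negative and 3 of them were called (median -0.15), whereas 26 of 29 accessory subunit genes were negative and 0 were called (median -0.18). Cox6a1 (0.19, interval 0.01 to 0.37, adjusted p = 0.133 by edgeR) and Ndufa13 (0.22, interval -0.02 to 0.46, adjusted p = 0.187) had positive values. Ndufa13 was chosen after its values were seen. Low-level Cox7a1 had the highest value of all, 0.64, with an interval of -0.30 to 1.58. Neither the accessory subunit genes Ndufb11 and Ndufa1 nor the 3 most abundant genes of complex III passed, with values of -0.24 and 0.03 for the former and of -0.28, -0.09 and 0.04 for Uqcrfs1, Uqcr11 and Uqcr10.

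**Figure D3:**
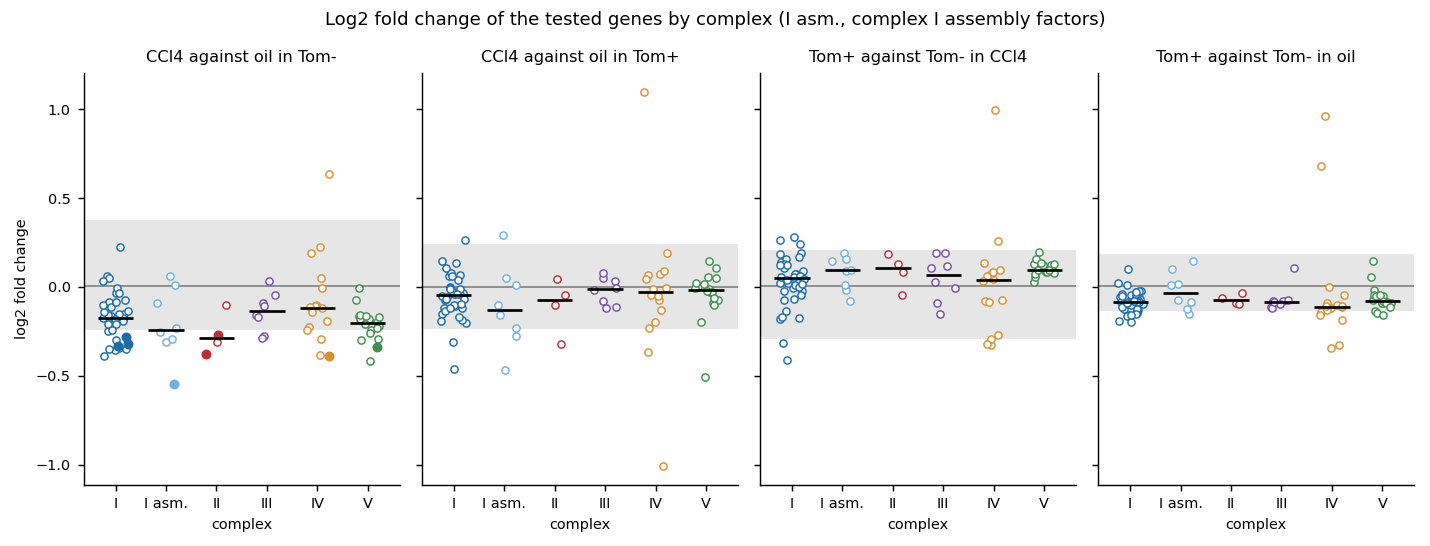
Log2 fold change of the 92 tested genes in 4 comparisons, by complex (I asm. marks the complex I assembly factors), where filled points passed an adjusted p of 0.05, black bars are medians of the complex, the grey line is the median of all tested genes and the grey band spans their 25th to 75th percentile. The 8 filled points are all in the first panel, below 0.

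The result in Tom- hepatocytes depended on single libraries. The library labelled Tom- oil replicate 1 stood apart for these genes, with a median deviation of 0.26 (log2 CPM, relative to the mean over the 12 libraries), while the other 11 libraries lay between -0.16 and 0.10. Without it, 2 genes were called (Cox5b and Ndufaf8). Leaving out Tom- oil replicate 2 gave 4 genes, and leaving out Tom- CCl4 replicate 1, 2 or 3 gave 4, 3 and 3, with Cox5b among them each time. Without Tom- oil replicate 1 and the library labelled Tom+ oil replicate 2, none was called and the median was -0.09, while 3.22% of all genes tested in that fit were lower and 5.56% higher. The adjusted p of the 8 genes then ran from 0.0605 for Cox5b to 0.173 for Ndufs1, the values staying negative, from -0.49 for Ndufaf8 to -0.21 for Ndufv2. None of the changes reached a log2 fold change of 0.75, the threshold that the study stated for its comparisons of Tom+ with Tom-.

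Because TPM is a share of all transcripts, sums over a complex also move with other genes. The 98 genes together had 13728.5, 12927 and 12169.4 TPM in the Tom- oil libraries, 13083.4, 11378.6 and 11876.7 in Tom+ oil, 10436.3, 11307.3 and 10928.5 in Tom- CCl4 and 12132.2, 13959.5 and 13181.6 in Tom+ CCl4. Tom- CCl4 was the lowest group, without overlap with Tom- oil (ratio of means 0.842) or with Tom+ CCl4 (ratio of Tom+ to Tom- 1.2). Each complex showed this, with CCl4 to oil ratios in Tom- between 0.793 for complex II and 0.900 for complex IV. For these 2 complexes the ratios were 0.817 and 0.915 without the 2 oil libraries whose reporter went against their labels. The Tom+ to Tom- ratios in CCl4 ran from 1.11 for complex IV, the only complex whose groups overlapped in that comparison, to 1.28 for complex V and the assembly factors. The mitochondrially encoded genes and the 100 genes with the highest mean TPM, ranked over all genes, were then left out of the total. The ratios became 0.963 and 1.04 and the groups overlapped. Without the 2 oil libraries the ratio of CCl4 to oil in Tom- was 0.868 over all genes, again without overlap, and 1.01 after leaving out these abundant genes. The 100 highest genes took 48.4% to 58.0% of all TPM, with the highest shares, 55.1% to 58.0%, in Tom- CCl4. After leaving out these abundant genes the groups still did not overlap in Tom- for complex II (CCl4 to oil ratio 0.907) and the assembly factors (0.919), and between the fractions in CCl4 for complex II (1.08). Without the 2 oil libraries the ratios in Tom- were 0.947 and 0.941, again without overlap.

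**Figure D4:**
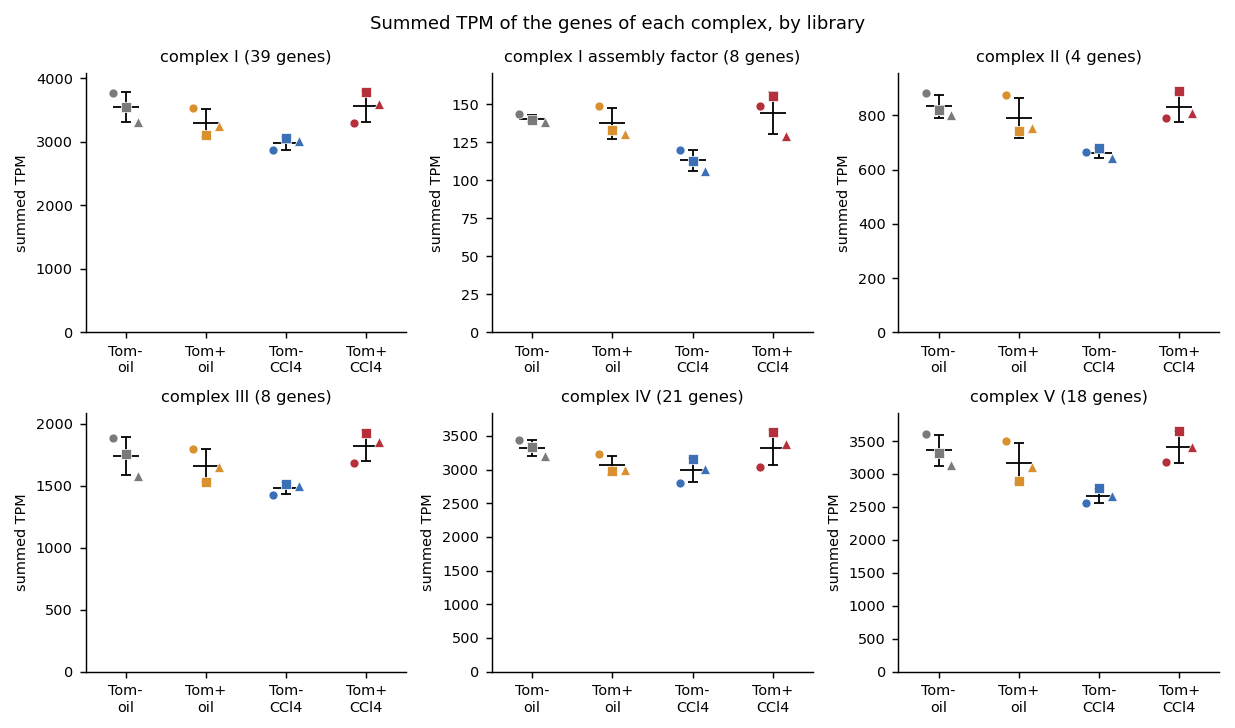
Summed TPM of the genes of each complex in each library (circle, square and triangle for replicates 1, 2 and 3), with group means as bars and 1 SD as error bars. In all 6 panels the Tom- CCl4 libraries lie below the Tom- oil libraries.

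In Tom+ hepatocytes no gene of oxidative phosphorylation was called between CCl4 and oil. At an unadjusted p under 0.05 in edgeR, 1 was higher (Ndufa8, 0.27) and 7 were lower, and DESeq2 called 0. Over all tested genes, 4.91% were higher and 4.56% lower in this comparison, against 0% of the 92 genes. Values nearest to a call were -0.47 for the assembly factor gene Ndufaf3 (interval -0.81 to -0.13, adjusted p = 0.0798 by edgeR), -0.32 for Sdhb (-0.58 to -0.07, adjusted p = 0.111) and -0.31 for Ndufb3, an accessory subunit gene of complex I (-0.57 to -0.06, adjusted p = 0.121).

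The abundant subunits had intervals around 0 in this fraction, -0.03 for Atp5b (-0.23 to 0.17), -0.09 for Atp5a1 (-0.30 to 0.11), -0.04 for Sdha (-0.21 to 0.13) and 0.09 for Cox4i1 (-0.15 to 0.33). The median over the 92 genes was -0.04, with 63 negative, and the Tom+ CCl4 libraries lay wholly below the Tom+ oil libraries for 7 of the 92 genes, against 14.6% of all tested genes. Without the 2 libraries whose reporter went against their labels the median was -0.07 and again 0 were called, against 2.12% of all genes lower and 3.09% higher. Without Tom+ CCl4 replicate 2, Ndufb3 was called. The 2 treatment comparisons use different libraries, and whether they differ was tested by the interaction below.

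Averaged over both fractions, 9 genes were called lower in CCl4, where 10.1% of all tested genes were lower and 11.9% higher. They were Cox5b (-0.31, SE 0.0643, adjusted p = 0.00462 by edgeR), Ndufaf8 (-0.41, SE 0.0888, adjusted p = 0.00564), Ndufs3 (-0.26, adjusted p = 0.00813), Ndufb3 (-0.33, adjusted p = 0.0138), Sdhb (-0.31, adjusted p = 0.0173), Ndufaf3 (-0.38, adjusted p = 0.0267), Sdhc, Atp5a1 and Ndufs1. This average treats the 12 libraries as separate. With same-numbered Tom+ and Tom- libraries summed to 1, 3 against 3, only Cox5b and Ndufaf8 were called, and without the 2 oil libraries at odds with their labels 4 were (Cox5b, Ndufaf8, Ndufs3 and Sdhb), where 6.01% of all genes were lower and 8.3% higher. The 6 CCl4 libraries lay wholly below the 6 oil libraries for 3 of the 92 genes, against 3.49% of all tested genes. Cox5b and Ndufaf8 were thus called lower in CCl4 in each of these settings.

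Between Tom+ and Tom- hepatocytes of CCl4-treated mice, which asks how hepatocytes with the p16 label differed from their neighbours in injured liver, no gene was called without pairing, and 4 were called when same-numbered libraries were paired. Unpaired, 3 genes were higher and 3 lower at an unadjusted p under 0.05, DESeq2 called 1 lower (Cox6a1, adjusted p = 0.00603), and 1.96% of all tested genes were higher and 3.83% lower. With the replicate block, which compares the libraries within each number, 7.94% of all tested genes were higher and 9.72% lower, and among the 92 genes Ndufv2 was higher and Ndufa13, Cox6a1 and Cox7c were lower. Both shares of members lay under the background.

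Cox6a1, the widely expressed form of a small complex IV subunit, had 200, 226 and 223 CPM in Tom- CCl4 and 166, 179 and 185 CPM in Tom+ CCl4. It was lower in Tom+ in 3 of 3 pairs and the only one of the 92 genes whose Tom+ libraries lay wholly below the Tom- libraries, against 14.6% of all tested genes. Its log2 fold change was -0.29 (SE 0.0831), with an adjusted p of 0.0548 in edgeR without the block and 0.00632 with it. Cox7c, another small subunit of complex IV, had 113, 132 and 139 CPM in Tom- and 85.1, 116 and 105 CPM in Tom+ (-0.33, adjusted p = 0.106 without the block and 0.00794 with it).

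Ndufa13, an accessory subunit gene of complex I also known as Grim19, had 84.5, 87.9 and 105 CPM in Tom- CCl4 and 65.6, 71.8 and 85.9 CPM in Tom+ CCl4 (-0.32, adjusted p = 0.11 in edgeR without the block and 0.00487 with it). The groups overlapped but each pair went down. Ndufv2 went the other way, from 50.8, 50.9 and 54.4 CPM in Tom- to 60.2, 64.1 and 60.1 CPM in Tom+ (0.24, adjusted p = 0.16 without and 0.0311 with the block), without overlap. Cox7c, Ndufa13 and, for this comparison, Ndufv2 were chosen after their values were seen. Whole-library shifts matter for such small differences: when only total counts were used for scaling, the median of all tested genes moved to 0.15, that of the 92 genes to 0.22, and 8 genes were called higher. With that scaling 11.5% of all tested genes were called higher.

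**Figure D5:**
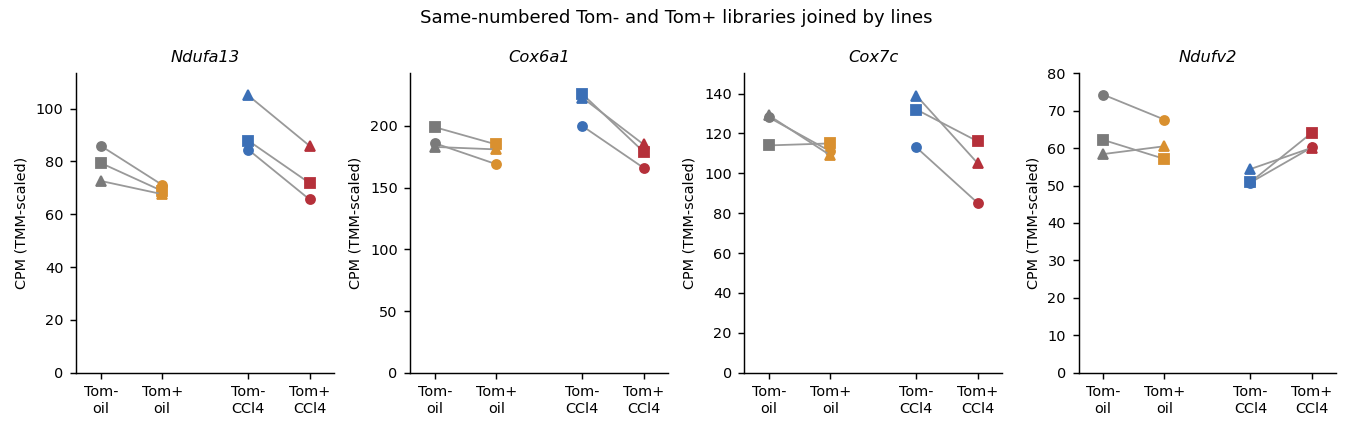
CPM of the 4 genes called between Tom+ and Tom- in CCl4 with the replicate block, in each library, with lines joining same-numbered Tom- and Tom+ libraries (circle, square and triangle for numbers 1, 2 and 3). In CCl4 the 3 lines fall for Ndufa13, Cox6a1 and Cox7c and rise for Ndufv2.

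Over the 92 genes the fractions lay close together in CCl4. The median log2 fold change was 0.07 against 0.004 over all tested genes, 67 genes were positive, and all 18 genes of complex V were positive with a median of 0.10 and a narrow range of 0.03 to 0.20. The Tom+ libraries lay wholly above the Tom- libraries for 7 of the 92 genes (among them Atp5a1, Sdha and Uqcrfs1), against 14.1% of all tested genes. The intervals of the main subunits included 0, as for Atp5b (0.10, -0.10 to 0.30), Sdha (0.13, -0.04 to 0.30), Uqcrfs1 (0.19, -0.03 to 0.41) and Cox4i1 (-0.09, -0.32 to 0.15).

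In oil-treated mice none of the 92 genes was called between Tom+ and Tom-, with or without the replicate block. Without the block 0% of all tested genes were called in either direction, and with it 0.175% were higher and 0.45% lower. At an unadjusted p under 0.05 in edgeR 0 were higher and 1 (Ndufa9, -0.16) was lower, and DESeq2 called 0. The median was -0.08, and 0.03 without the 2 libraries whose reporter went against their labels, so even its sign rested on those libraries. Within the numbered pairs the median difference of Tom+ from Tom- was -0.16, -0.12 and 0.07, the first 2 of these pairs each holding 1 of the 2 libraries.

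Nor was any gene called in the interaction, which tests whether the difference between Tom+ and Tom- was another in CCl4 than in oil and equally whether CCl4 acted differently in the 2 fractions. Over all tested genes 0.473% were higher and 1.07% lower, and with the replicate block, which also called none of the 92, 5.3% and 7.18%. At an unadjusted p under 0.05 in edgeR, 2 genes were higher, Ndufv2 (0.31, interval 0.02 to 0.61, adjusted p = 0.245) and Cox7a2l (0.42, interval 0.02 to 0.82, adjusted p = 0.247), and DESeq2 called 0. The median over the 92 genes was 0.15 with all libraries and 0.01 without the 2 oil libraries. The calls in Tom- and their absence in Tom+ therefore do not show that the fractions responded differently.

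Several lists of neighbouring functions, written with earlier results of these data known, were counted beside these genes. In Tom- hepatocytes the coenzyme Q and electron carrier list had 4 of 20 genes lower in CCl4 and 0 higher, among them Coq7 (-0.57, SE 0.156, adjusted p = 0.0253 by edgeR), an enzyme of coenzyme Q synthesis, and Etfdh (-0.36, SE 0.0841, adjusted p = 0.0118), which passes electrons from fatty acid oxidation to ubiquinone. Assembly factors outside the rule had 5 of 41 lower and 0 higher, among them Lyrm2 (-0.83, SE 0.203, adjusted p = 0.0151) and Atpaf1 (-0.73, SE 0.182, adjusted p = 0.0163), a chaperone of the F1 head. Of 17 tricarboxylic acid cycle genes 4 were lower and 0 higher, of 78 mitochondrial ribosome genes 3 were lower and 1 higher, and of 85 cytosolic ribosome genes 1 was lower and 0 higher. Without the 2 oil libraries these counts of lower genes became 0 of 20, 1 of 41 (Coa5), 0 of 17, 0 of 78 and 0 of 85. Among all tested genes 6.75% were lower and 9.37% higher in this comparison, and 3.22% and 5.56% without the 2 oil libraries.

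Slc25a4, the ADP/ATP carrier of heart and muscle, went the other way. It had 0.58, 0.736 and 0.695 CPM in Tom- oil and 2.5, 2.54 and 2.22 CPM in Tom- CCl4, a difference of 1.84 (SE 0.243, adjusted p = 0.000511 by edgeR, and 0.00399 without the 2 oil libraries). Vdac1 and Vdac2, channels of the outer membrane from the same list of 7 tested genes, were lower, though not without the 2 oil libraries.

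Of 21 regulators of mitochondrial genes, 2 were lower and 1 was higher with CCl4 in each fraction, and without the 2 oil libraries 1 was lower and 0 higher in each. With all libraries, 6.75% of all tested genes were lower and 9.37% higher in Tom-, and 4.56% and 4.91% in Tom+. Esrrg, a nuclear receptor known to act on oxidative phosphorylation genes, was called lower in both. It had 1.95, 4.22 and 2.94 CPM in Tom- oil and 1.57, 3.19 and 1.27 CPM in Tom+ oil, but 0.253, 0 and 0 CPM in Tom- CCl4 and 0.222, 0.24 and 0.0835 CPM in Tom+ CCl4. The adjusted p by edgeR was 0.00257 in Tom- and 0.0127 in Tom+, and 0.00743 and 0.0611 without the 2 oil libraries. Ppargc1b, a coactivator of the same genes, had 2.37, 2.52 and 3.53 CPM in Tom+ oil and 1.55, 1.03 and 0.939 CPM in Tom+ CCl4 (-1.24, SE 0.29, adjusted p = 0.0172, and 0.0486 without the 2 oil libraries), and in Tom- its value of -0.86 did not pass (adjusted p = 0.0614). The levels of Ppargc1a, Nrf1, Gabpa and Esrra overlapped between CCl4 and oil in Tom+, as did those of Ppargc1a, Nrf1, Esrra and Yy1 in Tom-. Yy1 in Tom+ did not overlap, at 61.8, 61.4 and 75 CPM in oil and 76.4, 81.6 and 83.1 CPM in CCl4. Nor did Gabpa in Tom-, at 57.3, 52.8 and 59.2 CPM in oil and 51.6, 44.8 and 49.2 CPM in CCl4. Neither passed the test (0.28, adjusted p = 0.0665 by edgeR for Yy1, and -0.22, adjusted p = 0.174 for Gabpa).

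In Tom+ hepatocytes, where 4.91% of all tested genes were higher and 4.56% lower, 3 of the 17 cycle genes were higher in CCl4 and 0 lower, namely Cs (0.88, SE 0.113, adjusted p = 0.00042 by edgeR), which makes citrate, Dlat (0.72, adjusted p = 0.00309) and Idh3a (0.90, adjusted p = 0.00124). Gpd2, which feeds electrons from glycerol phosphate to ubiquinone, was higher (0.78, adjusted p = 0.000786), and Sco2, a copper chaperone for complex IV, was lower (-1.32, SE 0.143, adjusted p = 0.000121). All 5 were also called without the 2 oil libraries. Between Tom+ and Tom- in CCl4, a comparison that shares the Tom+ CCl4 libraries, their values were 0.56 for Cs, 0.57 for Dlat, 0.57 for Idh3a, 0.49 for Gpd2 and -0.83 for Sco2, each of them called. In that comparison the replicate block moved the counts of higher genes from 4 to 7 of 17 cycle genes, from 2 to 4 of 20 coenzyme Q and electron carrier genes, from 1 to 4 of 41 assembly factors, from 0 to 2 of 21 regulators, from 0 to 2 of 7 carriers and channels, from 1 to 6 of 78 mitochondrial ribosome genes and from 0 to 12 of 85 cytosolic ribosome genes. Of all tested genes 1.96% were higher without the block and 7.94% with it.

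Transcripts of the 13 protein-coding genes of mitochondrial DNA, the partners of these subunits, had another pattern. In Tom- hepatocytes 9 of 13 were higher in CCl4 and 0 lower (median log2 fold change 0.74), and in Tom+ 0 were higher and 3 lower (median -0.53). Without the 2 oil libraries the counts were 13 higher in Tom- and 1 lower in Tom+. With all libraries, 9.37% of all tested genes were higher in Tom- and 4.56% lower in Tom+, and without the 2 oil libraries 5.56% and 2.12%. In the interaction 5 of the 13 were lower (median -1.33), against 1.07% of all tested genes, and 11 without the 2 oil libraries. Between Tom+ and Tom- in CCl4, 4 of the 13 were lower, against 3.83% of all tested genes, and 8 without these 2. Their summed level was 35800, 24500 and 18500 CPM in Tom- oil, 35800, 36300 and 42500 in Tom+ oil, 34600, 44800 and 55000 in Tom- CCl4 and 27600, 22900 and 28900 in Tom+ CCl4. The library labelled Tom- oil replicate 1 was thus nearer to the Tom+ oil libraries than to the other Tom- oil libraries. The library labelled Tom+ oil replicate 2, at 36300 CPM, lay between the other Tom+ oil libraries, as its label says.

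Markers of other cells moved with the treatment. Of the 8 stellate cell markers, 6 were higher in Tom- CCl4 (7 without the 2 oil libraries) and 5 in Tom+ CCl4 than in oil, with a summed level of 6.99 to 22.3 CPM in the oil libraries and 50.8 to 105 CPM in the CCl4 libraries. All 6 endothelial markers, or 5 without the 2 oil libraries, were higher in Tom- CCl4 (196 to 212 CPM, against 77.7 to 119 in Tom- oil), and 0 of 6 were called in Tom+ (103 to 139 CPM, against 86.1 to 144 in Tom+ oil). Between the fractions in CCl4, 5 of 6 endothelial markers were lower in Tom+, and 6 of 6 with the replicate block. No macrophage marker was called without the replicate block, at 14.2 to 114 CPM in oil and 46.6 to 128 CPM in CCl4. With it, 2 of 6 macrophage markers were lower in Tom+ than in Tom- in CCl4. With a block on numbers shared by the treatments, 2 of 6 were higher in Tom- CCl4 than in Tom- oil. Of 3 erythroid markers, 1 was lower in Tom- CCl4 than in Tom- oil, and 0 without the 2 oil libraries. The bile duct list summed to 5.25 to 7.38 CPM in oil and 8.47 to 18 CPM in CCl4, nearly all of it from Spp1 and Sox9, which had counts in every library, whereas Krt19 and Krt7 were at 0 in all oil libraries. Spp1 was higher in Tom+ CCl4 than in Tom+ oil (1.23, adjusted p = 0.0334 by edgeR), though not without the 2 oil libraries (adjusted p = 0.115). The lymphocyte list summed to 0.407 to 4.41 CPM, nearly all of it from Ptprc, which other blood cells share, and Nkg7 was at 0 in all but 2 libraries. Against summed hepatocyte markers of 88800 CPM or more these levels were low, and their part in the values of the oxidative phosphorylation genes was not tested.

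Liver zones differed between the groups as well. The 9 markers of hepatocytes near the portal vein (zone 1) summed to 7860 to 9740 CPM in Tom- oil, 7660 to 9260 in Tom+ oil, 6830 to 7830 in Tom- CCl4 and 4840 to 5750 in Tom+ CCl4. The 9 markers of hepatocytes near the central vein (zone 3) summed to 1910 to 5030 CPM in Tom- oil, 745 to 2460 in Tom+ oil, 1320 to 2230 in Tom- CCl4 and 3100 to 4160 in Tom+ CCl4. With CCl4 in Tom+, 8 of 9 zone 1 markers were lower and 5 of 9 zone 3 markers higher, or 8 and 7 without the 2 oil libraries. Of all tested genes 4.56% were lower and 4.91% higher there, or 2.12% and 3.09% without these 2. In Tom-, 2 zone 1 markers were higher and 1 lower, and 1 zone 3 marker was lower, or 0, 0 and 2 without these 2. Between Tom+ and Tom- in CCl4, 6 of 9 zone 1 markers were lower and 0 of 9 zone 3 markers were called. Without the 2 oil libraries 7 zone 1 markers were lower and 2 zone 3 markers higher. With the replicate block 8 of 9 zone 1 markers were lower and 8 of 9 zone 3 markers higher. In oil, 0 were called without the block, and with it 4 of 9 zone 3 markers were lower and 2 of 9 zone 1 markers higher in Tom+. The part of zone in their values was not tested.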

How the data were processed

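RNA-seq was carried out on Tom+ and Tom- hepatocytes of p16-Tom mice given oil or CCl4 (4 groups of 3 libraries, grouped by the labels). Reads had been processed by the authors with fastp (v0.23.2) and HISAT2 (v2.1.0) on mm10, per the submitters' processing notes, and their differential expression used DESeq2 (v1.42.1). The counting program, its strand setting and the annotation release are not given in the sources used here. The table deposited by the authors holds expected counts per gene, summed over annotated exons and not normalized. Between 30.4% and 32.9% of the values above 0 in each library were fractional, so all were rounded (the planned tests were written for whole numbers).

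The tests were run in edgeR (v4.0.16, under R v4.3.3) using filterByExpr, TMM and the robust quasi-likelihood test in 1 fit of the 12 libraries with a coefficient per group. A gene was called at a Benjamini-Hochberg adjusted p under 0.05 over 17121 tested genes. Symbols were matched for 99.8% of features. CPM were TMM-scaled, and TPM used the deposited exonic lengths. Total counts ranged from 37568584 to 75331424, and replicates differed by more than sampling noise. The members, the related lists and the tests were chosen with earlier results of these data known. Named genes were the 3 most abundant per complex, all of complex II, up to 5 called genes per direction and comparison with a mean of at least 1 CPM, isoform pairs, catalytic subunits and assembly factors, and others are said to be chosen after their values were seen. In each complex and list only a selection of these is printed, and 1 gene that the rule names is not reported here.

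The deviations of Tom+ and Tom- libraries of 1 number from their group means were correlated (over genes, 0.205, 0.231 and 0.318 in oil and 0.247, 0.187 and 0.401 in CCl4), so the numbers in the labels were taken to pair the fractions, and for the oxidative phosphorylation genes the result with a replicate block is given where it changed a call, and for the other lists as counts. Alternatives were RLE or total-count scaling, other filters, DESeq2 (v1.42.0), 6 libraries, leaving out libraries and a replicate block. The fit was tested on simulated data. Sequences came from RefSeq tables on GRCm38.p6, the build of mm10. Figures were drawn with matplotlib (v3.10.9).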

Additional observations from a re-analysis of the deposited data

Results flagged for a closer look

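Sdha and Ndufs1 were lower in Tom+ than in Tom- in 3 of 3 same-numbered pairs in oil and higher in 3 of 3 pairs in CCl4. The difference between the 2 effects (Tom+ against Tom- in CCl4 minus that in oil, log2) was 0.23 for Sdha (SE 0.111, adjusted p = 0.293 by edgeR) and 0.17 for Ndufs1 (SE 0.127, adjusted p = 0.494), so neither passed the test. With the replicate block the adjusted p was 0.107 for Sdha and 0.224 for Ndufs1. Without the 2 oil libraries whose reporter went against their labels the values were 0.20 and 0.11. Of the 92 tested genes 3 (3.26%) had this pattern, the third being Cox6c2, against 5.62% of all tested genes.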

How the results depend on the processing

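In the comparison of CCl4 with oil in Tom-, the 8 genes called became 14 when only total counts were used for scaling, a setting chosen after seeing the data, 5 with the 6 libraries of the comparison alone, and 0 without the 2 oil libraries whose reporter went against their labels or when a log2 fold change beyond 0.75 was also asked for. With total counts 9.25% of all tested genes were lower there, and 11.5% were higher between Tom+ and Tom- in CCl4. With a replicate block on numbers shared by the treatments, 3 were called (Cox5b, Ndufaf8 and Ndufs3). Correlations within these numbers were 0.009 to 0.226, against 0.187 to 0.401 between the fractions. These ranges overlap, so whether these numbers pair libraries is not settled. RLE scaling gave 7, as did dropping the filter or asking for 10 counts or more in each library, and DESeq2 gave 11. Leaving out 1 library gave 2 to 8 genes in Tom-, the lowest without Tom- oil replicate 1, and 0 to 1 in Tom+. In the other 3 comparisons it gave 0. Between Tom+ and Tom- in CCl4, total counts gave 8 higher, the stricter filter and DESeq2 each 1 lower (Cox6a1), and the replicate block 4, and the block changed no other call of these genes between the fractions. Over both fractions the 9 genes became 2 with same-numbered libraries summed and 4 without the 2 oil libraries, which was also chosen after seeing the data. No direction of a called gene reversed in any setting run. Scaling by total counts moved the median of all tested genes by over 0.1 between the fractions in CCl4 (to 0.15) and in the interaction (to 0.14), while the members' median relative to all genes stayed at 0.07 and 0.16. The cause of these changes was not tested. The effect of read depth on these counts was not tested.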
